A study of Homo sapiens with 4 samples.

Results

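The mitochondrial ribosomal protein genes are the nuclear genes for the protein part of the ribosome inside mitochondria. They were taken here as every protein-coding gene whose symbol starts with MRPL or MRPS, followed by a number, and which a probe set names alone. MRPL stands for the large and MRPS for the small subunit, though some proteins with MRPS names, such as MRPS18A, sit in the large subunit. There were 75 such genes among the 19775 genes that a probe set named alone, 48 with MRPL and 27 with MRPS names, on 21 chromosomes. The measurements came from 4 Affymetrix U133 Plus 2.0 arrays, 1 per condition. Both lines came from breast cancers, MDA-MB-231 of the triple negative and T-47D of the estrogen receptor-positive kind, and were kept for 24 h with 100 μM JPH203 or with the vehicle Captisol, a modified cyclodextrin, as the control. JPH203 inhibits LAT1, a transporter that brings large neutral amino acids into cells. Each group was 1 sample of an established line, with no inserted transgene or deletion named in the labels, so the effect of JPH203 and the spread between cultures cannot be told apart. No difference below has an error, a replicate check or a p-value.

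The mitochondrial ribosome translates the few proteins that the mitochondrial genome encodes, all of them membrane subunits of the respiratory chain and the ATP synthase. Its RNAs are transcribed inside the organelle, whereas every one of its proteins is made on cytosolic ribosomes and imported. Many of these proteins are kin of bacterial ribosomal proteins, and others occur in mitochondrial ribosomes alone. Inherited defects in several of these genes, MRPS22 and MRPL44 among them, impair respiration in humans. The arrays measured their transcripts in whole cultures, where a shift in all cells and a larger one in some of them cannot be told apart.

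The signal of a gene was that of its brightest probe set, in linear units scaled on each array, and ratios were taken between arrays for the same probe set alone. A gene was tested where its signal was at least 100 on 1 of the 2 arrays compared, and it was called when the ratio reached 2 or fell to 0.5 or less. Of the 75 genes, 74 reached a signal of 100 on each of the 4 arrays. MRPL2 was the exception, with 88.1 with JPH203 and 88.9 in the control array of T-47D cells, and 91.7 with JPH203 and 101.1 in the control array of MDA-MB-231 cells. Its second probe set gave 77.1 and 122.6 in T-47D cells in the same order, so the level of this gene was near the minimum throughout. As a check of the labels, the MDA-MB-231 control array had 9 of 9 mesenchymal markers tested, and the T-47D control array 12 of 12 luminal epithelial markers, at 2-fold or more above the other line.

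In T-47D cells, the signal with JPH203 was above that of the control array for 70 of the 74 genes tested, 94.6%, against 46.3% of the 7325 genes tested in all, a count of 24 when the arrays were scaled to spike-in transcripts. The median log2 ratio of the 74 genes was 0.46, a ratio of 1.38, with values between −0.21 and 1.65, while that of all genes tested was −0.05. At the 2-fold threshold 4 genes rose, which is 5.41% of those tested against 2.84% of all genes tested, and 0 fell, against 3.80% of all. At a ratio of 1.5 the counts were 28 higher (37.8%, against 12.2% of all genes tested) and 0 lower, against 17.2% of all. The shift was therefore broad and mostly smaller than 2-fold. It depended on how the arrays were scaled. These poly-A transcripts, normally added to RNA before labelling, had a mean signal of 1243.9 on the JPH203 array and 796 on the control array of T-47D cells, and scaling both arrays to them turned the median to −0.18 for these genes and to −0.70 for all genes. The distance between these 2 medians is 0.52 with and without that scaling. It could not change, because the scaling adds 1 constant to every log2 ratio. After quantile normalization this distance was 0.35, and after a loess correction on signal it was 0.34. The amounts of spike-in added are not given in the sources used here, so the share of the spike-in difference that belongs to the cells was not tested.

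In MDA-MB-231 cells, the same genes lay on the other side of 1 by a smaller distance. The ratio was below 1 for 60 of 75 genes, against 51.0% of the 7154 genes tested, and the median log2 ratio was −0.12, a ratio of 0.918, with values between −0.52 and 0.12. At the 2-fold threshold 0 genes rose (background 0.196%) and 0 fell (background 0.0839%), and at a ratio of 1.5 the counts were also 0 higher (1.08% of all genes tested) and 0 lower (0.727%). Of the genes tested in both lines, 55 of 74, or 74.3%, had a ratio above 1 in T-47D and below 1 in MDA-MB-231 cells, a pattern shown by 26.4% of the 5947 genes tested in both lines. A further 15 were above 1 in both lines, 4 were below 1 in both, and 0 showed the reverse pattern. The log2 ratio was larger in T-47D cells for 72 of 74 genes, and the median of the difference, T-47D minus MDA-MB-231, was 0.57. The order of the genes was not shared: across the 74 genes, which are not independent replicates, Pearson's r between the log2 ratios of the lines was −0.05 and Spearman's rho was −0.02. Scaling to the spike-ins, whose ratio was 0.927 in this line, moved the median to −0.01 with 34 genes above 1 and 41 below. The same scaling put the T-47D median at −0.18 with 24 genes above 1, so the T-47D median was then the lower of the 2. The opposite sides of 1 therefore do not hold under the spike-in scaling. They did under the other scalings. After median centring the medians were 0.51 in T-47D and −0.11 in MDA-MB-231 cells. They were 0.33 and −0.12 after quantile normalization, and 0.34 and −0.11 after loess, in the same order. The exact counts given above are those of the scaling as deposited.

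**Figure D1:**
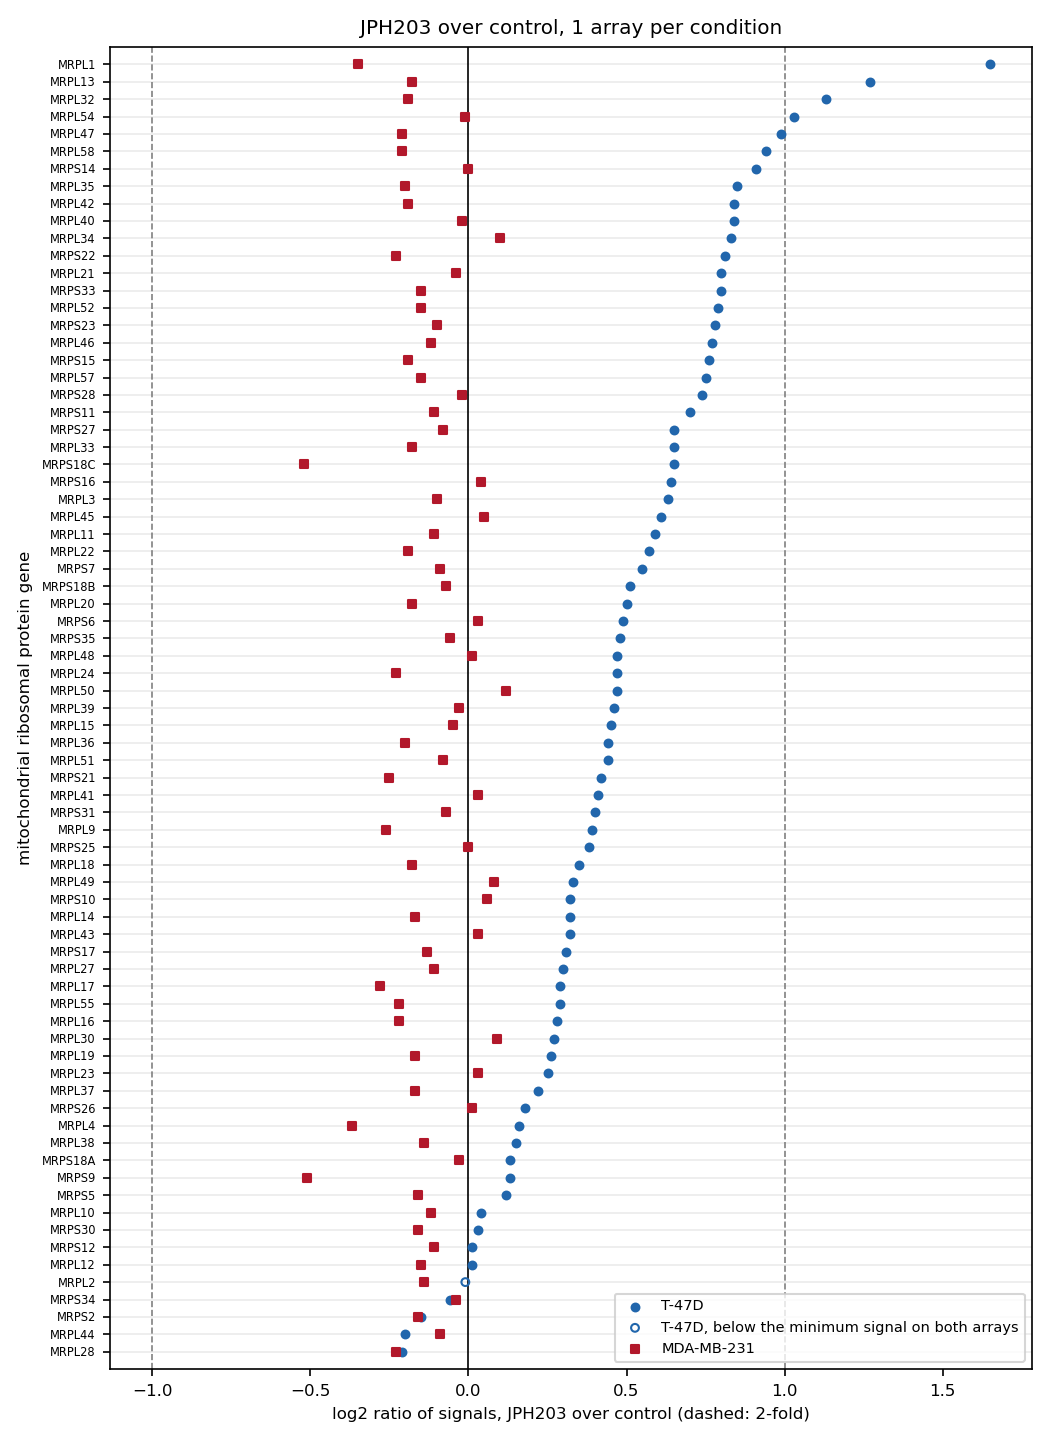
Log2 ratio of signals, JPH203 over control, for each of the 75 genes in T-47D cells (circles) and MDA-MB-231 cells (squares), ordered by the T-47D value, with 1 array per condition and dashed lines at 2-fold. MRPL1, MRPL13, MRPL32 and MRPL54 lie past 2-fold in T-47D cells, 70 of 74 circles lie right of 0, and no square reaches 2-fold. The open circle is MRPL2, below the minimum signal on both T-47D arrays. Scaled to the spike-in transcripts, the median of the T-47D values would lie at −0.18 in place of 0.46.

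The gene with the highest ratio in T-47D cells was MRPL1, whose protein is kin of the bacterial L1 protein of the stalk beside the exit site for spent transfer RNA. Its signal was 1063.0 with JPH203 and 339.0 in the control array of T-47D cells, a ratio of 3.14. In MDA-MB-231 cells it was 519.3 with JPH203 and 662.2 in the control array, a ratio of 0.784. The JPH203 array thus had the higher signal in T-47D cells and the lower signal in MDA-MB-231 cells. MRPL1 was called under each of the scalings tried, the spike-in scaling included.

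MRPL13 encodes a large subunit protein with a bacterial counterpart. It had a signal of 2465.7 with JPH203 and 1024.6 in the control array of T-47D cells, a ratio of 2.41, against 883.7 with JPH203 and 1002.2 in the control array of MDA-MB-231 cells, a ratio of 0.882. The ratio of its control signals, MDA-MB-231 over T-47D, was 0.978 as deposited, a log2 ratio of −0.03, and turned to 1.67 when scaled to the spike-ins.

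MRPL32 encodes a protein that an inner membrane protease must trim before it joins the large subunit, as shown in yeast and mouse. The signal was 3252.5 with JPH203 and 1481.8 in the control array of T-47D cells, a ratio of 2.19, and 1298.7 with JPH203 and 1476.4 in the control array of MDA-MB-231 cells, a ratio of 0.880. The control arrays had a ratio, MDA-MB-231 over T-47D, of 0.996 as deposited, a log2 ratio of −0.01 that turned to 1.70 when scaled to the spike-ins. MRPL54, a large subunit protein without a bacterial counterpart, had 2431.8 with JPH203 and 1194.2 in the control array of T-47D cells, a ratio of 2.04, and 752.7 and 759.7 in MDA-MB-231 cells in the same order, a ratio of 0.991. These 4 genes have 1 probe set each on the array, so no second probe set bears on their values. MRPL32 and MRPL54 were no longer called after quantile normalization, with log2 ratios of 0.95 and 0.84, or after a loess correction on signal, with 0.95 and 0.89. Scaled to the spike-ins, MRPL1 was the only gene still called, and MRPL13 was at 0.62, MRPL32 at 0.49 and MRPL54 at 0.38.

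The genes just outside the threshold were MRPL47 and MRPL58. MRPL47, kin of the bacterial protein L29 at the mouth of the peptide exit tunnel, had 7057.3 with JPH203 and 3544.4 in the control array of T-47D cells, a ratio of 1.99. Its log2 ratio, 0.99 as deposited, depended on the scaling. It was 1.04, and so called, after median centring, 0.59 after quantile normalization, 0.66 after loess and 0.35 scaled to the spike-ins. MRPL58, also known as ICT1, is a peptidyl-tRNA hydrolase built into the large subunit that frees stalled chains. It had 2869.9 with JPH203 and 1494.8 in the control array, a ratio of 1.92. In MDA-MB-231 cells both were lower with JPH203, at ratios of 0.865 for MRPL47 and 0.867 for MRPL58, neither of them called.

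Because the genes moved broadly together, the promoters of the called genes were searched for motifs of factors known to act on nuclear genes for mitochondrial proteins. The 250 bases before the RefSeq start (assembly GRCh38.p14) of 3 called genes are printed 5′ to 3′, with motif matches in capitals. MRPL13 had no entry in the table used and is named only.
MRPL1 (chr4:77862580-77862829, plus strand): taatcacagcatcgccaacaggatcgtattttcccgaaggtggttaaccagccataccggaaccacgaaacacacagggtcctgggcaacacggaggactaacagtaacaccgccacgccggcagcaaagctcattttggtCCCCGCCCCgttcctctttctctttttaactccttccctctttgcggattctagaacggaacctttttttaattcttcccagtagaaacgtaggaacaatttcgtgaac
MRPL32 (chr7:42932126-42932375, plus strand): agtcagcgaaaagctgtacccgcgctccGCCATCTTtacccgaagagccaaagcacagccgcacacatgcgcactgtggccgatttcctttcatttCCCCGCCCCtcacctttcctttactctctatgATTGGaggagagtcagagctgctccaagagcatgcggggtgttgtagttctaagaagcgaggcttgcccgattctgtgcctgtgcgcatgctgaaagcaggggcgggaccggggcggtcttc
MRPL54 (chr19:3762432-3762681, plus strand): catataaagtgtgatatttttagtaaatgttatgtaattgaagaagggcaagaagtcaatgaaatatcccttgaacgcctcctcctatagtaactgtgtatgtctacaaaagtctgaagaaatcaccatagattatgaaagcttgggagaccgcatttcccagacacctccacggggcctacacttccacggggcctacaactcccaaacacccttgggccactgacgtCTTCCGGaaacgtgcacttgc
In the MRPL1 window the capitals mark a Sp1 GC box (GGGGCGGGG, here on the reverse strand), whose first base lies 109 bases before the start. In the MRPL32 window they mark, from left to right, a YY1 match (AANATGGC, reverse strand) at 222, a GC box at 154 and a CAAT box (CCAAT, reverse strand) at 122 bases before the start. In the MRPL54 window they mark an ETS core (CCGGAAG, reverse strand), the core bound by GABPA, at 21 bases before the start. The 3 called genes with a printed window thus did not share 1 motif among those searched.

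Over the family, 67 of the 75 genes had a promoter in the table. The ETS core was in 22 of the 67 windows, 32.8%, against 8.82% of all 27305 promoters and 19% of those of genes tested in T-47D cells. The motif of NRF1 was in 8 windows, 11.9%, against 5.53% of all promoters and 12.4% of those of tested genes. YY1 matches were in 5 windows, 7.46%, against 3.91% of all and 5.01% of tested genes. GC boxes were in 16, 23.9%, against 15.4% of all and 27.2% of tested genes, CAAT boxes in 19, 28.4%, against 33% and 37.3%, and E boxes (CACGTG) in 6, 8.96%, against 6.49% and 9.84%. Set beside the tested genes, the share was thus higher in the family for the ETS core and YY1 and lower for the other 4 motifs, as a description. Both strands were searched, and a match is a run of letters, not a measured binding site. The median log2 ratio in T-47D cells was 0.46 for the 22 genes with an ETS core and 0.46 for the 45 without it. It was 0.79 with (5 genes) and 0.45 without a YY1 match, 0.38 and 0.47 for NRF1 (8 genes with it), 0.42 and 0.47 for GC boxes, 0.31 and 0.50 for CAAT boxes, and 0.51 and 0.46 for E boxes, in the same order.

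By role, the shift in T-47D cells was spread over both subunits. The median log2 ratio was 0.46 for 47 MRPL genes, with 45 above 1, and 0.48 for 27 MRPS genes, with 25 above 1. All 4 genes called carry MRPL names, and at a ratio of 1.5 the counts were 18 MRPL and 10 MRPS genes. The groups that follow go by the place of the protein, so some genes with MRPS names count with the large subunit. Large subunit proteins with bacterial kin had a median of 0.44 (29 genes, 28 above 1), and those particular to mitochondria 0.46 (20 genes, 19 above 1). In the small subunit the medians were 0.45 for the proteins with bacterial kin (14 genes, 13 above 1) and 0.51 for those particular to mitochondria (11 genes, 10 above 1). The 4 groups thus lay between 0.44 and 0.51 on the log2 scale.

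Among small subunit genes the largest ratios in T-47D cells belonged to MRPS14, MRPS22 and MRPS33. MRPS14, kin of bacterial S14 in the head of the subunit, had a signal of 3347.9 with JPH203 and 1787.2 in the control array, a ratio of 1.87. MRPS22, a protein of mitochondrial ribosomes alone, had 1689.6 and 961.3 in the same order, a ratio of 1.76. For MRPS33 the values were 1623.2 with JPH203 and 933.2 in the control array, a ratio of 1.74. In MDA-MB-231 cells none of these 3 passed 1.5-fold, with ratios of 1.00 for MRPS14, 0.851 for MRPS22 and 0.901 for MRPS33.

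Proteins that line or surround the peptide exit tunnel had a median log2 ratio of 0.47 in T-47D cells, with 7 of 8 genes above 1. MRPL47 and MRPL45 passed 1.5-fold in this group. MRPL45, which docks the ribosome to the inner membrane, had a signal of 798.8 with JPH203 and 523.5 in the control array, a ratio of 1.53. MRPL44 was the gene below 1, with 348.4 with JPH203 and 400.7 in the control array. In the central protuberance, where the subunits touch, all 6 genes were above 1 with a median of 0.41, led by MRPL40 (1996.4 with JPH203 and 1115.8 in the control array, a ratio of 1.79) and MRPL46 (1096.6 and 641.3, a ratio of 1.71).

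The stalk that recruits translation factors gave a mixed picture within 1 structure. MRPL11, at its base, had a signal of 2360.5 with JPH203 and 1567.4 in the control array of T-47D cells, a ratio of 1.51. MRPL10, which anchors the stalk, had 1581.9 and 1534.9 in the same order, a ratio of 1.03. MRPL12, the stalk protein itself, which also binds the mitochondrial RNA polymerase, had 1214.1 and 1209.8. In MDA-MB-231 cells all 3 were slightly below 1, at ratios of 0.928, 0.918 and 0.901 in that order of genes.

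The probe sets with the strongest control signals belonged to MRPL41, MRPL57, MRPL47, MRPL9 and MRPL3 in T-47D cells and to MRPS15, MRPL3, MRPL36, MRPL57 and MRPL41 in MDA-MB-231 cells. MRPS15, kin of bacterial S15, had 4464.6 with JPH203 and 2628.5 in the control array of T-47D cells, a ratio of 1.70, and MRPL57 had 6262.4 and 3729.6, a ratio of 1.68. MRPL3, kin of bacterial L3, was at 1.55, MRPL36 at 1.36, MRPL41 at 1.32 and MRPL9 at 1.31. In MDA-MB-231 cells these 6 genes lay between 0.833 for MRPL9 and 1.02 for MRPL41, so none of the 6 reached 2-fold in either line.

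The genes at the low end in T-47D cells all stayed well inside the threshold. MRPL28 had a signal of 900.6 with JPH203 and 1038.7 in the control array, a ratio of 0.867. MRPL44, which lies near the tunnel exit and resembles RNase III enzymes, was at 0.869, while its second, dimmer probe set had 115.8 with JPH203 and 105.5 in the control array, a ratio of 1.10. MRPS2, kin of bacterial S2, had 447.5 with JPH203 and 495.2 in the control array, a ratio of 0.904, and MRPS34 had 949.7 and 986.7, a ratio of 0.963. Among the genes tested in both lines, MRPL28, MRPL44, MRPS2 and MRPS34 are the 4 whose brightest probe set was below 1 in both. In MDA-MB-231 cells their ratios were 0.851, 0.937, 0.895 and 0.974 in that order. MRPS12, kin of the bacterial decoding-site protein S12, had 1746.9 with JPH203 and 1739.0 in the control array of T-47D cells, a ratio of 1.00.

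The 3 MRPS18 genes are paralogs whose products take different places: MRPS18C is the closest kin of bacterial S18 in the small subunit, MRPS18B lies elsewhere in the small subunit, and MRPS18A sits in the large subunit. In T-47D cells MRPS18C had a signal of 982.1 with JPH203 and 627.5 in the control array, a ratio of 1.57. MRPS18B had 2838.6 and 1986.9 in the same order, a ratio of 1.43. MRPS18A had 677.3 and 619.6, a ratio of 1.09, but its second probe set had 605.5 and 454.8, a ratio of 1.33. On their brightest probe sets alone, the 3 paralogs thus spread from near 1 to past 1.5-fold. In MDA-MB-231 cells MRPS18C was the lowest of all 75 genes, with 891.1 with JPH203 and 1276.5 in the control array, a ratio of 0.698, while MRPS18B and MRPS18A were at 0.955 and 0.977. All 3 values were above the 0.667 that 1.5-fold lower requires.

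The lowest ratios in MDA-MB-231 cells after MRPS18C were those of MRPS9, MRPL4, MRPL1 and MRPL17. MRPS9 had a signal of 349.5 with JPH203 and 496.4 in the control array, a ratio of 0.704. MRPL4 had 180.9 and 234.1 in the same order, a ratio of 0.773, but its 3 probe sets did not move together, and another that was above the minimum on both arrays gave a ratio of 1.03. For MRPL17, beside the exit tunnel, the signal was 1071.0 with JPH203 and 1303.2 in the control array, a ratio of 0.822. At the other end of the range MRPL50 had the highest ratio, 1.09, with 452.3 with JPH203 and 414.9 in the control array, and its second probe set had 442.8 and 445.0, on the other side of 1. MRPL34, MRPL30, MRPL49 and MRPS10 followed at 1.07, 1.06, 1.05 and 1.04. No gene at either end of the range in this line therefore passed 1.5-fold.

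**Figure D2:**
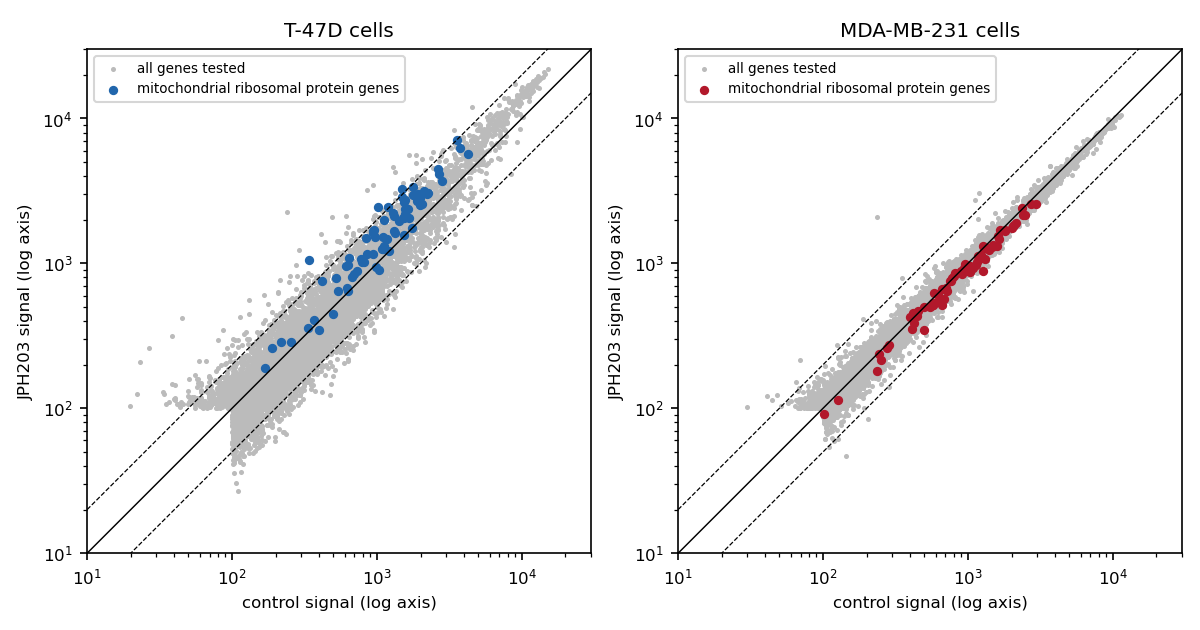
Signal with JPH203 (y axis) against the control signal of the same line (x axis), both on log axes, for all genes tested (grey) and the mitochondrial ribosomal protein genes (coloured), with T-47D cells on the left and MDA-MB-231 cells on the right. The solid line is a ratio of 1 and the dashed lines are 2-fold. The coloured points lie mostly above the solid line in T-47D cells (70 of 74) and mostly below it, close to it, in MDA-MB-231 cells (60 of 75). The T-47D side turns when the arrays are scaled to the spike-ins, with 24 of 74 above.

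Where several probe sets of 1 gene were bright enough, they mostly moved together in T-47D cells. Of 97 probe sets naming these genes alone that reached a signal of 100 with and without JPH203 in this line, 91 were above 1, and their median log2 ratio was 0.45. For 15 of the 18 genes with at least 2 such probe sets all of them lay on 1 side of 1, and for 0 genes did they differ by 1.5-fold in opposite directions. MRPS25, named after its values were seen, had the widest range. Its brightest probe set had a signal of 1024.8 with JPH203 and 788.0 in the control array, a ratio of 1.30, and another had 102.3 and 130.5, a ratio of 0.784. In MDA-MB-231 cells 24 of 98 such probe sets were above 1, with a median of −0.11, and 11 of 18 genes had all of theirs on 1 side.

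Genes that work with the mitochondrial ribosome were set beside it. Of 5 subunits that carry other names, 4 had a probe set of their own (DAP3, PTCD3, CHCHD1 and GADD45GIP1), and their median log2 ratio in T-47D cells was 0.15 with 3 above 1. CHCHD1 had a signal of 3774.4 with JPH203 and 3009.2 in the control array, a ratio of 1.25, and DAP3, a small subunit protein first described in cell death, had 2753.5 and 2281.8, a ratio of 1.21. In MDA-MB-231 cells all 4 were below 1, with a median of −0.13.

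Translation factors and related proteins of the mitochondrion lay about evenly around 1 in T-47D cells, with 6 of 12 above 1, a median of 0.04 and 0 called. SLIRP, which binds mitochondrial messenger RNA, was highest, with 6270.2 with JPH203 and 3226.5 in the control array, a ratio of 1.94, followed by the initiation factor MTIF3 with 652.5 and 370.8, a ratio of 1.76. LRPPRC, the binding partner of SLIRP, was named after its values were seen and went the other way without being called, with 936.0 with JPH203 and 1305.0 in the control array, a ratio of 0.717. In MDA-MB-231 cells all 13 genes of this list that were tested were below 1, with a median of −0.11 and 0 called. The 2 farthest from 1 were the elongation factor genes TUFM, with 980.7 with JPH203 and 1217.1 in the control array, and TSFM, with 192.6 and 234.5.

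Factors that assemble the mitochondrial ribosome also showed no common direction in T-47D cells, with 14 of 25 above 1, a median of 0.09 and 0 called. MTERF3 had 553.5 with JPH203 and 338.9 in the control array, a ratio of 1.63, and RCC1L had 242.7 and 376.9, a ratio of 0.644. In MDA-MB-231 cells the median was −0.04, with 10 of 23 above 1. Mitochondrial chaperones and proteases had a median of 0.01 in T-47D cells (6 of 11 above 1) and of −0.08 in MDA-MB-231 cells (2 of 11 above 1), with 0 called in both lines. In T-47D cells the chaperonin gene HSPE1 had 2125.1 with JPH203 and 1553.8 in the control array, and CLPX, of a matrix protease, had 189.9 and 256.4.

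Lists of structural genes of 2 other complexes lay closer to the mitochondrial ribosome. Cytosolic ribosomal protein genes had a median log2 ratio of 0.55 in T-47D cells, with 54 of 55 above 1, and of −0.08 in MDA-MB-231 cells, with 7 of 55 above 1. In T-47D cells 3 of them rose, or 5.45% against 2.84% of all genes tested, and these were RPL22L1 (3.71), RPS27L (2.27) and RPL39L (2.06), paralogs of core ribosomal protein genes. In MDA-MB-231 cells 1 of 55 fell, or 1.82% against 0.0839% of all genes tested. It was RPL27A, with 54.3 with JPH203 and 109.4 in the control array, close to the minimum signal. Respiratory chain and ATP synthase subunit genes had medians of 0.42 in T-47D cells (64 of 70 above 1) and −0.06 in MDA-MB-231 cells (23 of 69 above 1). In T-47D cells 2 of the 70 rose, COX7B2 (2.09) and NDUFB3 (2.08), or 2.86% against 2.84% of all genes tested. The genes called in these lists were named after their values were seen. These medians are descriptions of the same pairs of arrays, they were not tested against each other, and scaling to the spike-ins lowers every log2 ratio in T-47D cells by the same amount. The lists also differed in signal and length. The median control signal in T-47D cells and genomic length were 10405.4 and 5.21 kb for the cytosolic ribosome and 4710.9 and 10.6 kb for the respiratory chain. For translation factors they were 692 and 17.7 kb, and for assembly factors 335 and 20.5 kb. The part of signal and length in these medians was not tested.

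**Figure D3:**
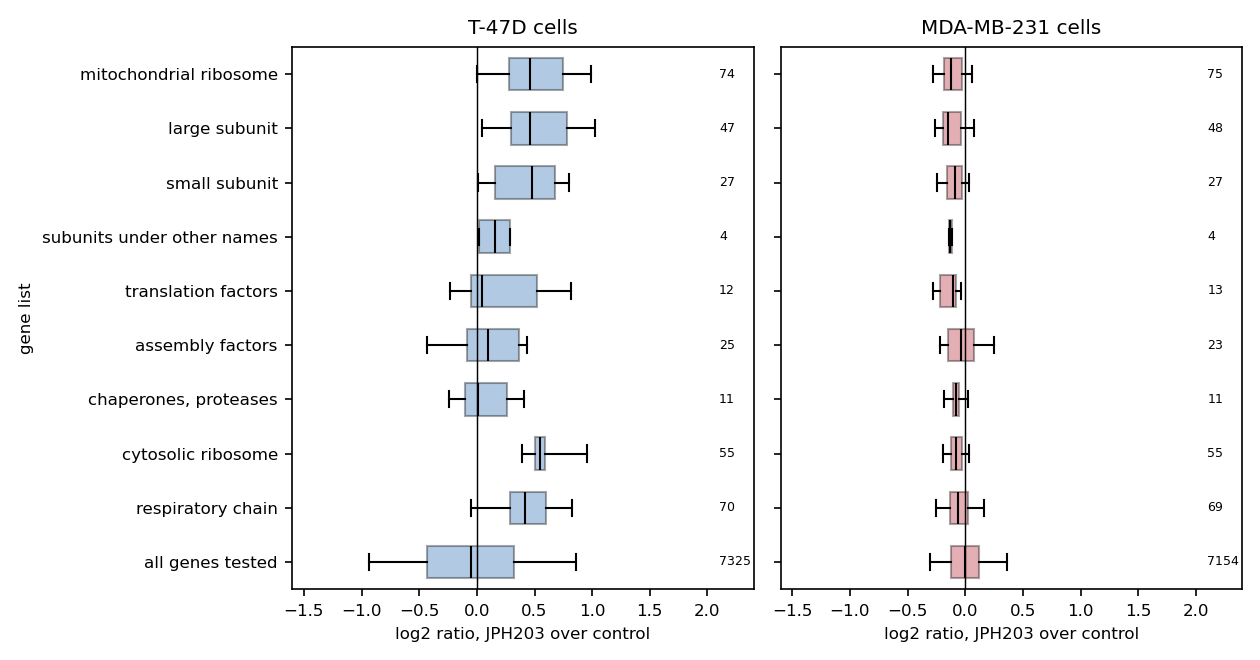
Log2 ratio, JPH203 over control, by gene list in T-47D cells (left) and MDA-MB-231 cells (right). Boxes span the quartiles with the median as a line, whiskers run from the 5th to the 95th percentile of genes, and the number at the right of each row is the number of genes tested. In T-47D cells the medians of the mitochondrial ribosome (0.46), the cytosolic ribosome (0.55) and the respiratory chain (0.42) lie right of 0, where scaling to the spike-ins would put the first at −0.18, and translation factors (0.04) and assembly factors (0.09) lie near 0. In MDA-MB-231 cells the medians of the lists lie between −0.15 (large subunit) and −0.04 (assembly factors).

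Gene length and signal moved with the T-47D ratio and were set beside it. Over all genes tested in T-47D cells, the median log2 ratio was 0.14, 0.04, −0.10 and −0.35 in 4 equal groups ordered by length, shortest first. The mitochondrial ribosomal protein genes were short, with a median genomic length of 9.17 kb against 28.3 kb for the other genes tested. Among 313 other genes within the interquartile range of these genes in both length (4.75 to 18 kb) and signal, the median log2 ratio was 0.13 with 62% above 1, against 0.46 with 94.6% above 1 for the 74 genes. Within the family the longer genes were not lower. The median was 0.41 for the 37 shorter and 0.48 for the 37 longer genes, and Spearman's rho of length and log2 ratio was 0.21 across the 74 genes, while it was −0.30 across 7323 genes. In MDA-MB-231 cells 351 other genes in both ranges had a median of −0.03 with 57.5% below 1, against −0.12 with 80% below 1 for the 75 genes. The quality readouts moved in part with the same arrays: the 3′ to 5′ signal ratio of ACTB was 1.72 with JPH203 and 1.39 in the control array of T-47D cells, and 1.44 and 1.45 in MDA-MB-231 cells in the same order. That of GAPDH was 0.867 with JPH203 and 0.94 in the control array of T-47D cells, and 1.01 and 0.987 in MDA-MB-231 cells. The part of length, signal and RNA quality in the ratios was not tested.

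**Figure D4:**
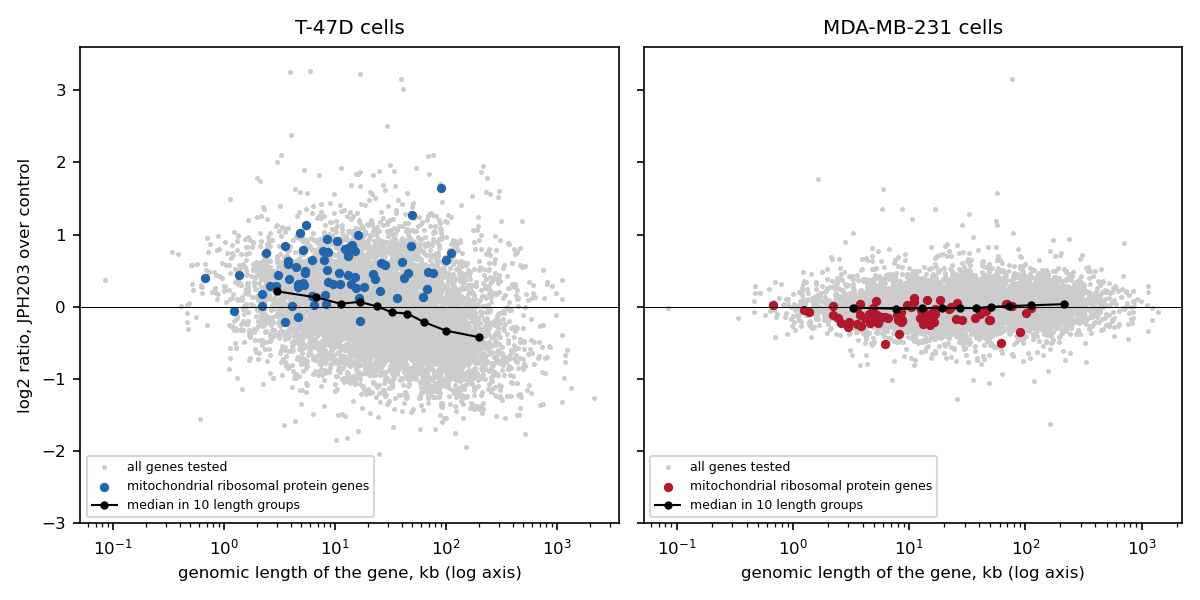
Log2 ratio, JPH203 over control, against genomic length in kb (log axis) for all genes tested (grey) and mitochondrial ribosomal protein genes (coloured), with the median in 10 length groups of all genes in black. In T-47D cells (left) the black line falls with length while the coloured points lie mostly above it, and in MDA-MB-231 cells (right) it stays near 0. Scaling to the spike-ins would lower every T-47D point by the same amount.

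Several of these genes share a start region with a neighbour that is read in the opposite direction. Such a head-to-head protein-coding neighbour, starting within 1000 bases, was found for 18 of 67 genes with a promoter entry, 26.9%, against 16.3% of 6070 protein-coding genes tested in T-47D cells. This count and the neighbours were chosen after the values were seen. Within the family MRPL46 and MRPS11 form 1 such pair, and their ratios in T-47D cells were 1.71 and 1.63. MRPL32 (2.19) faces the proteasome subunit gene PSMA2, which had 4767.0 with JPH203 and 3137.3 in the control array, a ratio of 1.52. MRPL49 (1.26) faces FAU, a gene that yields the cytosolic ribosomal protein S30, with 16385.3 and 10818.1, a ratio of 1.51. Of 11 neighbours outside the family that were tested, 0 were called, against 2.84% higher and 3.80% lower of all genes tested. Their median log2 ratio was 0.32, against −0.05 for all genes tested. Of the 11, 8 were above 1, against 46.3% of all genes tested, and 3 were below (HIRA at 0.767, SARS2 at 0.648 and PPP1R10 at 0.679). Those 3 are the neighbours of MRPL40, MRPS12 and MRPS18B, whose own ratios were 1.79, 1.00 and 1.43. The median in T-47D cells was 0.49 for the 18 family genes with such a neighbour and 0.44 for the 49 without. The part of a shared start region in these ratios was not tested.

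The lines also differed before treatment. With MDA-MB-231 control over T-47D control, the median log2 ratio of the 75 genes was −0.27, a ratio of 0.827. Of the 75 genes, 31 were above 1 and 44, or 58.7%, below, while the 8258 genes tested split evenly, with 4129 above 1 and 4128 below. Short genes in general were also lower. For 2013 other genes within the interquartile range of the family in length, the median was −0.32 with 59% below 1. For 279 other genes within both the length and the signal range it was −0.17 with 56.3% below 1. The part of length and signal in this comparison was not tested. At 2-fold, MDA-MB-231 cells were higher for 4 genes, or 5.33% against 23.1% of all genes tested, and lower for 13, or 17.3% against 24.2%. Many of the genes tested in all were below 100 on 1 of these arrays. With a signal of 100 required on both, the shares were 5.41% against 16.2% of 5699 genes higher, and 17.6% against 16.1% lower. The signal of the spike-ins differed far more between these 2 control arrays, with a mean of 245 for MDA-MB-231 and 796 for T-47D, and scaling to them turned the median to 1.43, with all 75 genes above 1 and the median of all genes at 1.70. That scaling leaves the order of the genes as it is and turns the 44 that were below 1.

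Scaled as deposited, the genes that were lower in MDA-MB-231 cells came from both subunits. MRPL55 had a signal of 251.0 in the MDA-MB-231 control array and 728.4 in the T-47D control array, a ratio of 0.345, which turned to a log2 ratio of 0.16 with the spike-in scaling. MRPS14 had 665.1 and 1787.2 in the same order, a ratio of 0.372, and MRPL10, the anchor of the stalk, had 578.4 and 1534.9, a ratio of 0.377. Both of these turned as well, to log2 ratios of 0.28 and 0.29. MRPL43 (0.392), MRPS18A (0.394), MRPL28 (0.397), MRPL49 (0.405), MRPS11 (0.416), MRPS21 (0.445) and MRPS34 (0.452) followed, and each of these 7 also turned under the spike-in scaling. The remaining genes called lower were MRPL22 (0.473), MRPL38 (0.490) and MRPS16 (0.494), given to complete the count. The second probe set of MRPS16 had 318.3 in the MDA-MB-231 control array and 408.7 in the T-47D control array, a ratio of 0.779. A dimmer probe set of MRPL43 was also short of 2-fold, with 227.1 and 415.4 in the same order, a ratio of 0.547, while another gave 0.45.

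Higher in MDA-MB-231 cells, under the scaling as deposited and that to the spike-ins alike, were MRPL35, MRPL33, MRPL50 and MRPS18C. MRPL35 had a signal of 1021.7 in the MDA-MB-231 control array and 417.7 in the T-47D control array, a ratio of 2.45, from a probe set whose design may also pick up other transcripts. MRPL33 had 2145.9 and 968.4 in the same order, a ratio of 2.22. MRPL50 had 414.9 and 189.0, a ratio of 2.20, and its second probe set 445.0 and 194.8. MRPS18C had 1276.5 and 627.5, a ratio of 2.03. The call of MRPS18C was lost after median centring, at a log2 ratio of 0.98, and that of MRPL50 after loess, at 0.99, and with the mean of all probe sets, at 0.83. MRPL1 lay just short of the threshold, with 662.2 in the MDA-MB-231 control array and 339.0 in the T-47D control array, a ratio of 1.95.

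By name, the median log2 ratio, MDA-MB-231 over T-47D, was −0.28 for MRPL genes (17 of 48 above 1) and 0.05 for MRPS genes (14 of 27 above 1). Proteins particular to mitochondria were at −0.57 in the large subunit (7 of 20 above 1) and −0.56 in the small subunit (4 of 11 above 1), and those with bacterial kin at −0.19 (11 of 30) and 0.13 (9 of 14). The respiratory chain list had a median of −0.83 with 26 of 70 genes, 37.1% against 24.2% of all, called lower in MDA-MB-231 cells and 0 higher, against 23.1%. The cytosolic ribosome had a median of −0.32 with 1 of 55 called in each direction, or 1.82% each way against 23.1% higher and 24.2% lower of all genes tested. These values hold for the scaling as deposited.

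Among helpers of the mitochondrial ribosome the called differences between the control arrays went both ways. For translation factors the median was 0.07 with 3 of 13 genes called in each direction, or 23.1% each way against 23.1% higher and 24.2% lower of all genes tested. The values are as deposited. Scaled to the spike-ins, the log2 ratio of TUFM turned to 0.51 and that of TACO1 to 0.53, while TSFM stayed below 0 at −0.59. TSFM, the exchange factor for the elongation factor TUFM, had 234.5 in the MDA-MB-231 control array and 1151.0 in the T-47D control array, a ratio of 0.204, and TUFM itself had 1217.1 and 2775.2, a ratio of 0.439. TACO1, needed to translate 1 subunit of cytochrome oxidase, was at 0.444. In the opposite direction the initiation factor MTIF2 had 1066.8 in the MDA-MB-231 control array and 288.8 in the T-47D control array, a ratio of 3.69, while GUF1 was at 3.30 and the release factor MTRF1L at 2.56, both from T-47D signals below 100.

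Assembly factors had a median of −0.19, with 1 called higher (AFG3L2, a subunit of the protease that trims MRPL32, with 2489.8 in the MDA-MB-231 control array and 1090.8 in the T-47D control array, a ratio of 2.28) and 5 called lower. Those 5 were RPUSD3 (0.301), NSUN4 (0.342), NGRN (0.443), DDX28 (0.452) and MTERF4 (0.497), of which NSUN4 was below 100 in MDA-MB-231 cells. Called shares were 4% higher and 20% lower, against 23.1% and 24.2% of all genes tested, and scaled to the spike-ins these 5 except RPUSD3, at a log2 ratio of −0.03, turned. Chaperones and proteases had a median of 0.38, with HSPE1 (2.5), HTRA2 (2.31), GRPEL1 (2.29) and YME1L1 (2.05) called higher in MDA-MB-231 cells, 4 of 11 or 36.4% against 23.1% of all, and 0 called lower, against 24.2% of all. The 4 subunits with other names had a median of −0.38, with 3 below 1 and 0 called lower, against 24.2% of all. PTCD3 was the 1 called higher, or 25% against 23.1% of all. It had 551.6 in the MDA-MB-231 control array and 188.2 in the T-47D control array, a ratio of 2.93.

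**Figure D5:**
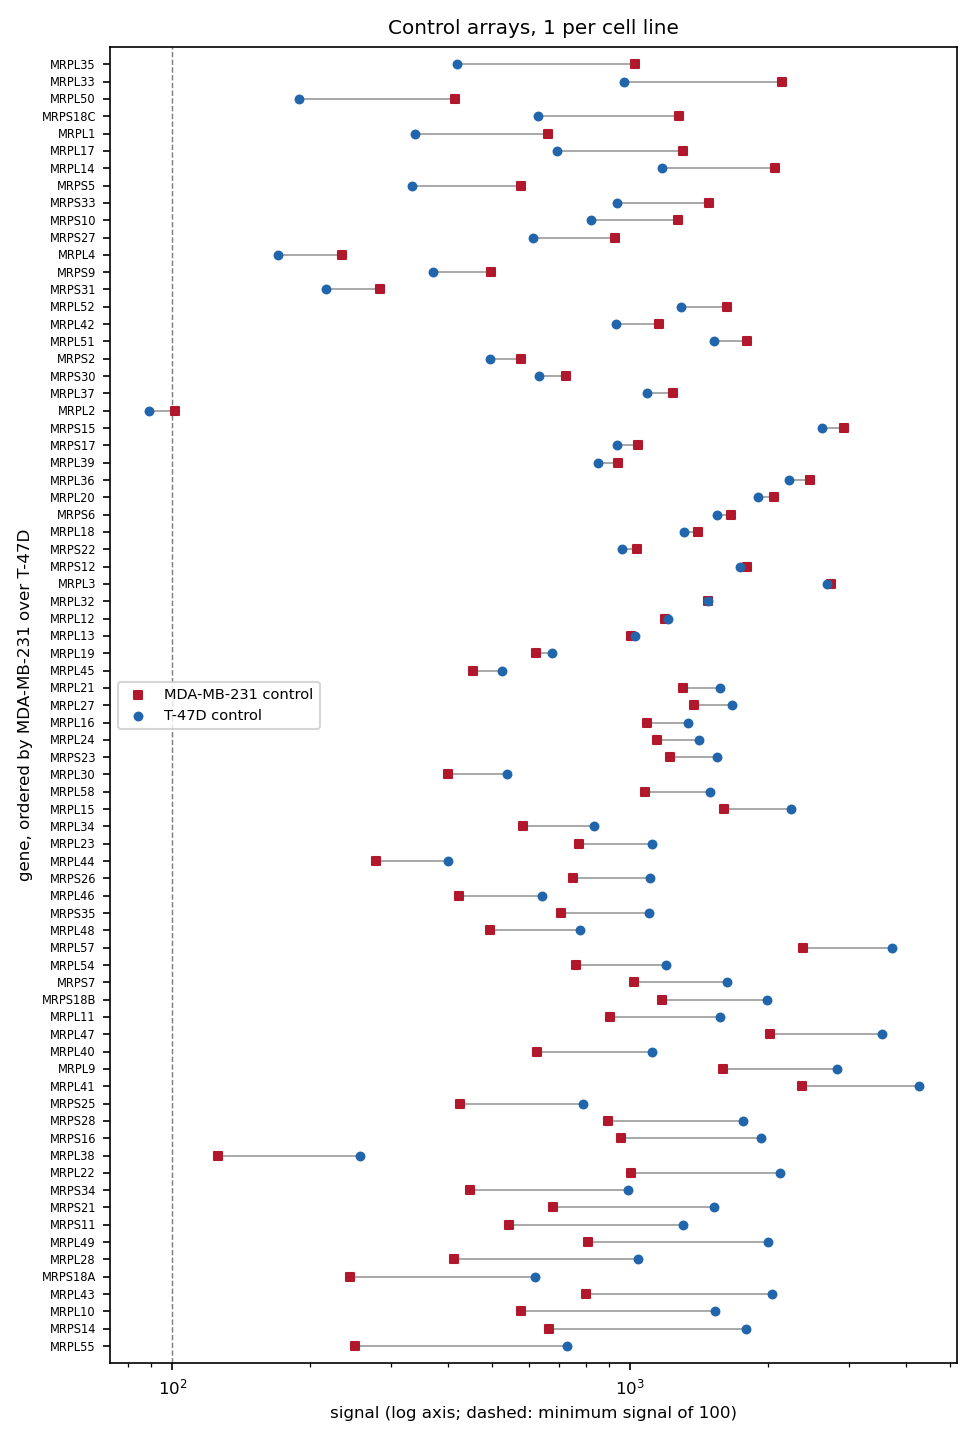
Signal (log axis) of each of the 75 genes on the MDA-MB-231 control array (squares) and the T-47D control array (circles), joined by a line and ordered by the ratio of MDA-MB-231 over T-47D, with 1 array per line. The ratios run from 0.345 for MRPL55 at the bottom to 2.45 for MRPL35 at the top, and MRPL2 lies at the dashed minimum signal. Signals of different genes come from different probe sets and are not comparable in size. Scaling to the spike-ins would place every square to the right of its circle.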

How the data were processed

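RNA of 4 samples was measured on Affymetrix U133 Plus 2.0 arrays, 1 per condition. For each of 54675 probe sets the authors deposited a linear signal intensity. The submitters' processing notes name GCOS; its version and settings are not given in the sources used here. After trimming 2% at either end, the mean signal was 100.0 on every array, as scaling each array to 1 target gives, and no further normalization is stated.

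The platform annotation pairs 41097 of them with 1 gene and 1801 with several, and 11777 are absent from the table used. Of those with 1 gene, 41043 were matched to RefSeq genes of GRCh38.p14, and 0 member symbols changed. The family has 140 probe sets naming 1 gene, and 37 of its 75 genes have several. A gene's level was that of the probe set with the highest mean log2 signal, and 43 of the 75 were of the _s_at and 3 of the _x_at design, which can share targets with other transcripts. Signals under 0.1 were set to 0.1 before log2. MRPS24 and MRPL53, found only on probe sets naming several genes, have no gene value. The pseudogene MRPL45P2 and the antisense RNA MRPL20-AS1 were left out. Between 10831 and 11857 probe sets per array reached a signal of 100. The number of arrays limits the precision.

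Ratios were called at 2-fold, the threshold of the study, and no test was run, because no condition was repeated. The members, lists and motifs were chosen with earlier results of these data known. The genes named were all those called, the 5 highest and lowest in each comparison, the 5 with the strongest control signal in each line, the MRPS18 paralogs and, for each role group and list of helpers, those called or the 2 or 3 that changed most; others were chosen after their values were seen. The alternatives were median centring, quantile normalization, loess on signal (span 0.4), scaling to 24 poly-A spike-in probe sets, a pseudocount of 16, minimum signals of 50, 200, none, or 100 on both arrays, other choices of probe set, and 1.5-fold and 3-fold thresholds. The code was checked on simulated arrays, which bears on the code alone and not on the spread between cultures. The tools were Python 3.11.15, pandas 2.3.3, numpy 2.4.6, statsmodels 0.14.6 (loess), scipy 1.17.1 and, for figures, matplotlib 3.10.9.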

Additional observations from a re-analysis of the deposited data

Results flagged for a closer look

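The family lay on opposite sides of 1 in the 2 lines, with a median log2 ratio, JPH203 over control, of 0.46 in T-47D cells and −0.12 in MDA-MB-231 cells, except that scaling to the spike-ins put the T-47D median at −0.18. Each line has 1 array per condition, so the difference between the lines was not tested. As deposited, the difference of log2 ratios, T-47D minus MDA-MB-231, was 2.0 for MRPL1, 1.45 for MRPL13, 1.32 for MRPL32 and 1.04 for MRPL54. These are the genes called in T-47D cells, each of them above 1 in T-47D and below 1 in MDA-MB-231 cells as deposited. The differences were not tested either. A probe set that names both MRPL53 and CCDC142, and was therefore left out of the gene values, had a signal of 3698.1 with JPH203 and 2073.0 in the control array of T-47D cells, a ratio of 1.78.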

How the results depend on the processing

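Without the spike-in scaling, the median log2 ratio of the family kept its sign in each comparison, lying between 0.33 and 0.51 in T-47D cells, in MDA-MB-231 cells from −0.12 to −0.08, and between the control arrays from −0.36 to −0.24. In T-47D cells it was 0.33 after quantile normalization and 0.34 after loess, with 2 genes called under each in place of 4, which is 2.7%, below the 3.13% and 4.19% of all genes called higher under these settings. Scaled to the spike-ins it was −0.18 in T-47D cells and −0.01 in MDA-MB-231 cells. In T-47D cells 1 gene was then called higher (1.35% against 0.464% of all) and 0 lower (against 29.9%). Between the control arrays the median was 1.43, with 54 genes called in place of 17, or 72% against 69.3% of all genes called higher. That scaling also turned the control-array log2 ratio of MRPL10 to 0.29, MRPL28 to 0.37, MRPL43 to 0.35, MRPL49 to 0.40, MRPL55 to 0.16, MRPS11 to 0.44, MRPS14 to 0.28, MRPS18A to 0.36, MRPS21 to 0.53 and MRPS34 to 0.56. It adds 1 constant to all log2 ratios of a comparison by construction.

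Without _x_at and _s_at probe sets, 2 of 35 genes tested were called in T-47D cells, both higher, or 5.71% against 3.17% of all genes. Between the control arrays 8 of 35 were called, 2 higher (5.71% against 25.7% of all) and 6 lower (17.1% against 24.6%). At 1.5-fold the counts were 28 in T-47D cells, all higher (37.8% against 12.2% of all), and 38 between the control arrays. Of those 38, 11 were higher (14.7% against 33.4% of all) and 27 lower (36% against 33.7%). At 3-fold the count in T-47D cells was 1, higher (1.35% against 0.546% of all). Between the control arrays it was 0, against 13.7% higher and 14.6% lower of all genes. With the mean of all probe sets, 1 gene was called in MDA-MB-231 cells, or 1.56% against 0.645% of all genes called higher. It was MRPS31, of which 1 dim probe set had 21.8 with JPH203 and 1.3 in the control array, both far below the minimum. Of 400 values of named genes under alternatives, 350 were counted as unchanged. For called genes this meant the same sign and still called, and for the others a shift of at most 0.1, whatever the sign. A further 27 moved more without a change of call, 11 were no longer called, 2 became called and 10 of called genes turned. Changes of sign in genes not called were not counted as turned. MRPL12 in T-47D cells, for example, went from a log2 ratio of 0.01 to −0.06 after quantile normalization. No paired analysis was possible because each condition has 1 array.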
